A study of Mus musculus with 6 samples.

Results

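The Cyp4a omega-hydroxylases are a family of cytochrome P450 genes that lie side by side on mouse chromosome 4, and 6 of their rows in the count tables are described here: Cyp4a10, Cyp4a12a, Cyp4a12b, Cyp4a14, Cyp4a31 and Cyp4a32. They were chosen by gene symbol, and all 6 were found among the 23282 rows of each table. The libraries come from whole liver of male C57BL/6N mice, which the sample labels give as C57BL/6. All mice were fed a high-fat diet for 12 weeks from 8 weeks of age. During the last 4 of these weeks they received either vehicle (3 libraries) or atractylodin (3 libraries), a polyacetylene compound of Atractylodes plants, by mouth at 10 mg/kg on 5 days per week. No mice on a control diet and no untreated mice were included. Nothing in the labels ties a library to an animal of its own. The p-values therefore measure only the spread between these libraries, which may be technical.

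Cyp4a enzymes oxidise the last carbon of fatty acids, the omega carbon, in the endoplasmic reticulum of hepatocytes and of kidney tubule cells. The resulting omega-hydroxy acids are oxidised further by alcohol and aldehyde dehydrogenases to dicarboxylic acids, which are shortened by beta-oxidation in peroxisomes. The nuclear receptor PPAR-alpha, activated by fatty acids and fibrate drugs, is the best known inducer of Cyp4a10 and Cyp4a14, which also rise on fasting. Cyp4a12a converts arachidonic acid to the vasoactive lipid 20-HETE, and Cyp4a12 genes are expressed mainly in male mice under androgen and growth hormone control, while Cyp4a14 is known as higher in females.

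In GENCODE M21 on GRCm38 (mm10), the 6 genes occupy 322.6 kb of chromosome 4, from 115299046 to 115621602, in the order Cyp4a12a, Cyp4a12b, Cyp4a14, Cyp4a10, Cyp4a31 and Cyp4a32. Cyp4a14 (115486200 to 115496142) is on the minus strand, and the other 5 are on the plus strand, among them Cyp4a10 (115518264 to 115533649), Cyp4a12a (115299046 to 115332815) and Cyp4a31 (115563649 to 115579015). The span holds 7 protein-coding genes and 6 pseudogenes. The seventh coding gene, Cyp4a30b, and a further family member, Cyp4a29, had a count of 0 in every library, where a count of 3 would equal 0.239 to 1.64 CPM (counts per 1000000 counts) by library.

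The coding sequence around the cysteine that binds the heme iron is shown for each gene, because it shows how close the family members are to one another and which of them can be told apart by sequence. Each line gives 63 coding bases, 5′ to 3′ in the direction of the gene, from the GENCODE M21 transcript, and the capitals mark the cysteine codon. The bases run from exon 11 into exon 12 in every gene. They are exonic and coding, and in the genome they lie between the positions given.

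Cyp4a10 (chromosome 4, 115529493 to 115532567): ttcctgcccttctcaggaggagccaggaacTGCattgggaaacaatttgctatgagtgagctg
Cyp4a31 (115574941 to 115577972): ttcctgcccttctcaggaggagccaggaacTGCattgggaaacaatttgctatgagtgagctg
Cyp4a32 (115614871 to 115621470): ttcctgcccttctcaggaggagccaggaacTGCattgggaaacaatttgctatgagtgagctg
Cyp4a12a (115328977 to 115331870): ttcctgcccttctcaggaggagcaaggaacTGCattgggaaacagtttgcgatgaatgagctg
Cyp4a12b (115435231 to 115438093): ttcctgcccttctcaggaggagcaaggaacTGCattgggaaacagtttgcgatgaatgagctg
Cyp4a14 (115487275 to 115489814): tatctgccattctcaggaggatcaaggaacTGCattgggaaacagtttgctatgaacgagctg

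The 63 bases were identical in Cyp4a10, Cyp4a31 and Cyp4a32, and identical in Cyp4a12a and Cyp4a12b. Counted from the first base shown, the Cyp4a12 genes differed from Cyp4a10 by C24A, A45G, T51G and G56A. Cyp4a14 differed from Cyp4a10 at 8 positions, among them T2A, C9A, G22T and T57C. Over the whole coding sequence, identity was 98.49% between Cyp4a12a and Cyp4a12b (23 mismatches in 1524 aligned bases). It was 96.59% between Cyp4a10 and Cyp4a31 and 97.18% between Cyp4a10 and Cyp4a32. Cyp4a14 shared 75.39% to 75.92% with the other 5 genes. The family thus fell into 3 sequence groups, and the rows within a group were also read as a sum.

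The libraries count transcript 3′ ends, so the similarity of those ends bears on how reads could be assigned. Of the 251 windows of 50 bases in the last 300 bases of the annotated transcript, none of Cyp4a10, Cyp4a14 or Cyp4a31 occurred exactly in a transcript of another member. For Cyp4a12a 129 windows (51.39%) occurred in Cyp4a12b, and for Cyp4a12b 134 (53.39%) in Cyp4a12a. For Cyp4a32, whose GENCODE transcript ends at the stop codon, 151 windows (60.16%) occurred in another member. How the authors annotated and assigned reads with more than 1 matching gene is not given in the sources used here, so the split between Cyp4a12a and Cyp4a12b and the count of Cyp4a32 are uncertain. The separate counts of Cyp4a10 and Cyp4a31 rest on 3′ ends that share no 50-base window, though the authors' counting could still have split their reads.

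Library totals ran from 1831461 counts in vehicle 1 to 12565393 in atractylodin 3, and vehicle 1 was the only library under 9871762. Vehicle 1 held 9024 counts of Cyp4a14 and 3072 of Cyp4a10, but only 51 of Cyp4a12b, 38 of Cyp4a31 and 31 of Cyp4a32. Levels are given in CPM on TMM-scaled library sizes. Because each transcript is read at its 3′ end, these values are not divided by gene length. Hepatocyte identity was clear from the defining markers, with albumin (Alb) averaging 54155 ± 1488 CPM in the vehicle group and 52148 ± 4170.5 CPM in the atractylodin group (SD, n = 3).

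With atractylodin, the livers had more Cyp4a14, Cyp4a10 and Cyp4a31 RNA, while no difference was called for Cyp4a32, Cyp4a12a or Cyp4a12b. In edgeR's quasi-likelihood test over 12505 genes, 3 of the 6 rows rose at an adjusted p under 0.05 and none fell. Of all genes tested, 3.92% were called higher and 7.25% were called in either direction. The estimate was above 0 for all 6 rows, with a median log2 fold change of 0.46 against a median of -0.0015 over all genes tested. The same 3 rows had groups that did not overlap, as did 13.5% of all tested genes in the same direction. In bulk liver a change in RNA per hepatocyte and a change in the share of the cells that express a gene cannot be told apart.

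**Figure D1:**
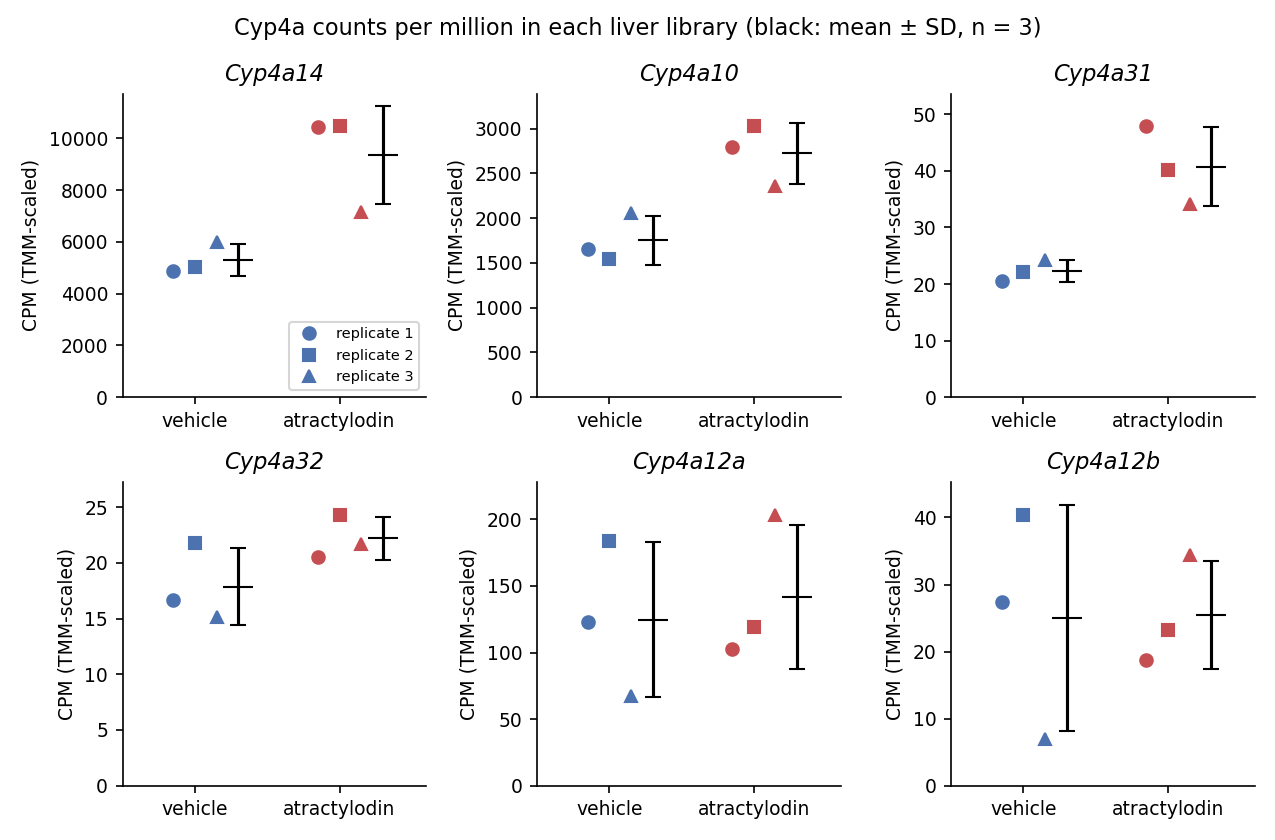
CPM (TMM-scaled, vertical axes from 0) of each Cyp4a gene in the 3 vehicle (blue) and 3 atractylodin (red) libraries, with the mean and SD in black and replicate numbers as marker shapes. For Cyp4a14, Cyp4a10 and Cyp4a31 every atractylodin library lies above every vehicle library, and for the other 3 genes the groups overlap.

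Cyp4a14, an omega-hydroxylase of medium- and long-chain fatty acids, was the most abundant member. Its level was 4858, 5025 and 5984 CPM in vehicle libraries 1, 2 and 3, against 10425, 10471 and 7151 CPM in atractylodin libraries 1, 2 and 3. Atractylodin 1 and 2 were close to each other, and atractylodin 3 stood nearest to the vehicle group. The log2 fold change was 0.82 ± 0.14 (SE, edgeR adjusted p = 0.00454), with a 95% interval of 0.51 to 1.13, which is 1.77-fold. Ranked by mean CPM, Cyp4a14 was the 20th of the 12505 genes with vehicle and the 11th with atractylodin. The call was lost without vehicle 2, where the estimate was 0.79 and the adjusted p was 0.0617, and the estimate was 0.98 without atractylodin 3.

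Cyp4a10, the next gene along the chromosome and also a fatty acid omega-hydroxylase, stood at 1654, 1544 and 2060 CPM with vehicle and at 2792, 3028 and 2353 CPM with atractylodin. The libraries nearest to the other group were again vehicle 3 and atractylodin 3. The log2 fold change was 0.64 ± 0.12 (SE, edgeR adjusted p = 0.00422, 95% interval 0.38 to 0.89). Cyp4a31, a close paralog of Cyp4a10 with no separate function assigned here, was measured at 20.5, 22.1 and 24.3 CPM with vehicle and at 47.9, 40.2 and 34.1 CPM with atractylodin. Its log2 fold change was 0.85 ± 0.15 (edgeR adjusted p = 0.00177, 95% interval 0.54 to 1.15). For Cyp4a31, too, vehicle 3 was the highest of its group and atractylodin 3 the lowest. Both calls held in each of the 6 fits that left out 1 library, with estimates from 0.56 to 0.77 for Cyp4a10 and from 0.72 to 0.96 for Cyp4a31.

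Cyp4a32, the third gene of the Cyp4a10 sequence group, stood at 16.7, 21.8 and 15.1 CPM with vehicle and at 20.5, 24.3 and 21.7 CPM with atractylodin. Vehicle 2 lay inside the range of the atractylodin libraries, so the groups overlapped. The log2 fold change was 0.29 ± 0.17 with an edgeR adjusted p of 0.334. Its 95% interval of -0.06 to 0.65 just includes the estimate of Cyp4a10 (0.64) but not that of Cyp4a31 (0.85). Whether Cyp4a32 differed from Cyp4a10 or Cyp4a31 in its response was not tested.

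Read as a sum, Cyp4a10, Cyp4a31 and Cyp4a32 gave 1691, 1588 and 2099 CPM with vehicle and 2860, 3092 and 2409 CPM with atractylodin. The log2 fold change of the sum was 0.64 ± 0.12 (edgeR adjusted p = 0.00375 over 12502 rows, of which 3.92% were called higher), the value of Cyp4a10 to 2 decimals. Cyp4a31 and Cyp4a32 together made up 2.28% ± 0.45 of the counts of the sum with vehicle and 2.27% ± 0.16 with atractylodin (SD, n = 3).

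Cyp4a12a, the male-predominant arachidonic acid omega-hydroxylase, stood at 122.7, 183.6 and 67.7 CPM with vehicle and at 102.5, 119.4 and 203.7 CPM with atractylodin. The lowest value was that of vehicle 3 and the highest that of atractylodin 3. The log2 fold change was 0.19 ± 0.51 (SE, edgeR adjusted p = 0.877), with a 95% interval of -1.19 to 1.56. Cyp4a12b, its near-identical neighbour, stood at 27.5, 40.4 and 7.03 CPM with vehicle and at 18.7, 23.2 and 34.4 CPM with atractylodin. Its order of libraries within each group was that of Cyp4a12a, and its log2 fold change was 0.06 ± 0.74 (adjusted p = 0.97496).

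The Cyp4a12 sum gave 150.2, 224.1 and 74.7 CPM with vehicle and 121.2, 142.5 and 238.2 CPM with atractylodin. Its log2 fold change was 0.16 ± 0.53 (edgeR adjusted p = 0.896), and the 95% interval of -1.28 to 1.61 includes the fold changes of Cyp4a14 and Cyp4a10. Whether Cyp4a12 differed from them in its response was examined only through the ratios given after it, and the sign of the estimate depended on single libraries. Without vehicle 3 it was -0.18 and without atractylodin 3 it was -0.18. Without vehicle 2 it was 0.64. Cyp4a12b made up 9.42% of the sum in vehicle 3 (95% Wilson interval 7.70 to 11.5), below the 14.5% to 18.3% of the other 5 libraries. These intervals cover counting error only.

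**Figure D2:**
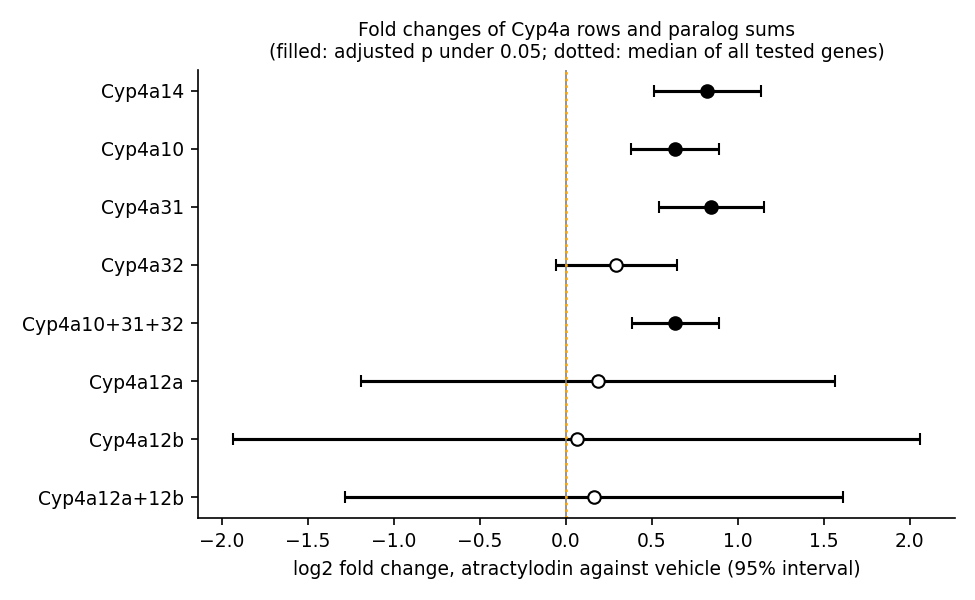
Log2 fold change with its 95% interval for each Cyp4a row and for both paralog sums, with atractylodin above vehicle to the right of 0. Filled points passed an adjusted p of 0.05 in edgeR, and the intervals of Cyp4a14, Cyp4a10, Cyp4a31 and the Cyp4a10 sum lie above 0 while that of Cyp4a12b runs from -1.94 to 2.06.

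Ratios of members within a library do not depend on library scaling. Cyp4a14 had 2.87, 3.16 and 2.85 times the counts of the Cyp4a10 sum in vehicle libraries 1, 2 and 3 and 3.64, 3.39 and 2.97 times in the atractylodin libraries. The mean log2 ratio was 0.17 higher with atractylodin (1.73 ± 0.15 against 1.57 ± 0.08, SD, n = 3), which a two-sided exact permutation test put at p = 0.2, where the smallest p the design allows is 0.1. The ratio of Cyp4a14 to the Cyp4a12 sum was 32.3, 22.4 and 80.1 with vehicle and 85.9, 73.4 and 30.03 with atractylodin. Vehicle 3 lay among the atractylodin values and atractylodin 3 among the vehicle values. The mean log2 ratio was 5.27 ± 0.95 with vehicle and 5.84 ± 0.82 with atractylodin (exact permutation p = 0.6). With a smallest possible p of 0.1, this test could not have passed at the level used for the genes, whatever the ratios were. The p-values of the 2 ratios, given before adjustment for multiple tests, therefore do not decide whether the members differed in response.

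All 6 rows together took 0.74% ± 0.08 of all counts with vehicle and 1.196% ± 0.227 with atractylodin (SD, n = 3). In CPM the sum was 7231 ± 806 with vehicle and 12304 ± 2175 with atractylodin, a ratio of 1.70, given without a test. Cyp4a14 supplied 73.1% ± 0.53 of the 6-gene counts with vehicle and 75.7% ± 2.46 with atractylodin, and Cyp4a10 24.2% ± 1.41 and 22.3% ± 1.61. The order of levels with vehicle was Cyp4a14, Cyp4a10, Cyp4a12a, Cyp4a12b, Cyp4a31 and Cyp4a32. The last 3 lay at 25.0 ± 16.8, 22.3 ± 1.91 and 17.9 ± 3.50 CPM. The vehicle libraries of Cyp4a12b (7.03 to 40.4 CPM) spanned those of both other genes, and Cyp4a31 was above Cyp4a32 in each vehicle library, a difference that was not tested. With atractylodin Cyp4a31 (40.7 ± 6.94 CPM) stood above Cyp4a12b (25.4 ± 8.08 CPM), though the lowest Cyp4a31 library (34.1 CPM) was just under the highest Cyp4a12b library (34.4 CPM).

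The genes whose level followed the members most closely over the 6 libraries were found by the root mean square difference of log2 CPM, centred on each gene's mean, among 3755 other genes at an average log2 CPM of at least 5. The measure includes the difference between groups and is a description with no test. For Cyp4a14 the nearest were Got1, encoding cytosolic aspartate aminotransferase (difference 0.12), the Cyp4a10 sum (0.13) and Gaa, the lysosomal alpha-glucosidase (0.13). For the Cyp4a10 sum they were Gaa (0.06), the carboxylesterase gene Ces1b (0.09) and A1cf, an RNA-binding cofactor of apolipoprotein B mRNA editing (0.11).

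For the Cyp4a12 sum the nearest genes were Mup20 (0.22) and Mup21 (0.31), which encode major urinary proteins, followed by Serpina7, encoding thyroxine-binding globulin (0.32). Mup20, which male mice secrete as a urinary pheromone, stood at 1859, 2918 and 1342 CPM with vehicle and at 1768, 1900 and 2628 CPM with atractylodin. Its highest and lowest vehicle libraries were those of Cyp4a12a, and its highest atractylodin library was again atractylodin 3. The log2 fold change of Mup20 was 0.04 ± 0.35 (edgeR adjusted p = 0.964). The Mup genes are a family of close copies whose reads the counting could split.

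**Figure D3:**
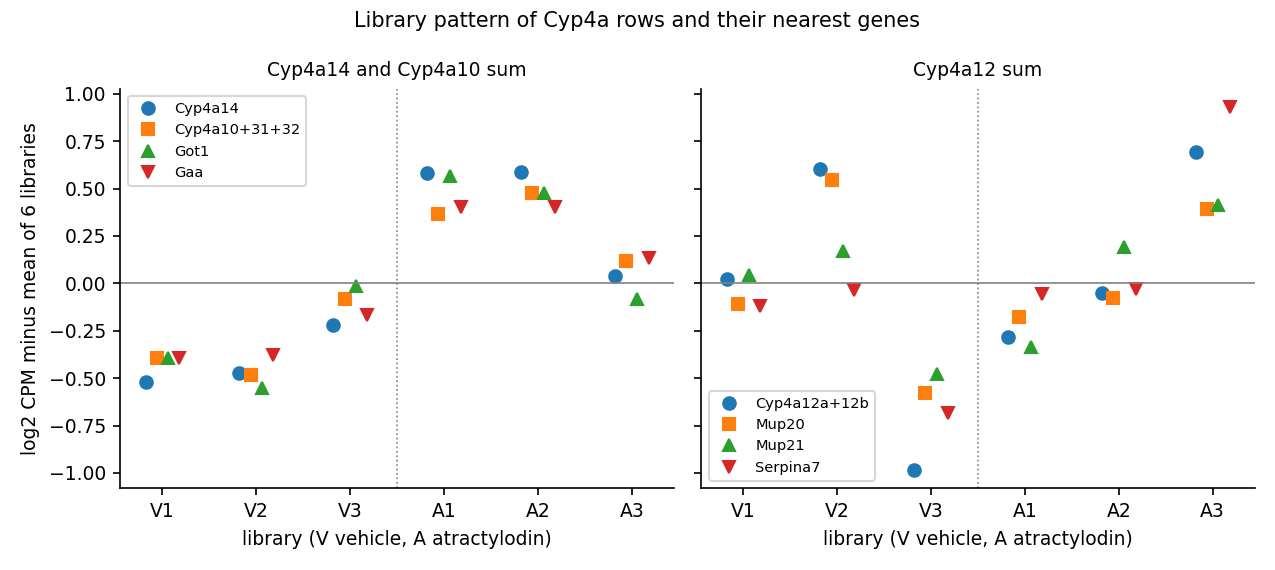
Log2 CPM minus the mean of the 6 libraries, by library (V1 to V3 vehicle, A1 to A3 atractylodin), for Cyp4a14 and the Cyp4a10 sum (left) and the Cyp4a12 sum (right) beside genes nearest to them. On the left A1 and A2 lie highest and A3 lowest of the atractylodin libraries, while on the right V3 is lowest and V2 and A3 are highest for the Cyp4a12 sum and Mup20.

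The rest of the pathway was examined through lists of genes named from general knowledge, but chosen with earlier results of these data known. Over all genes tested, 3.92% were called higher and 7.25% in either direction, as a measure for the list counts that follow. Among PPAR-alpha and its partners, 2 of 14 rose and none fell, with a median log2 fold change of 0.27. Ppara itself stood at 650.3, 607.0 and 624.7 CPM with vehicle and at 806.5, 806.1 and 706.7 CPM with atractylodin. These groups did not overlap, but Ppara missed the threshold (log2 fold change 0.30 ± 0.09, edgeR adjusted p = 0.0593), which it passed in 3 of 17 alternative analyses (other tests, scalings and filters, and each library left out in turn). Its heterodimer partner Rxra was at 216.5 ± 11.5 and 244.0 ± 7.13 CPM (SD, n = 3, adjusted p = 0.274). The rises were those of Lpin1, a phosphatidate phosphatase that also acts as a coactivator of PPAR-alpha (log2 1.86 ± 0.22, adjusted p = 0.00644), and of the corepressor gene Ncor1 (0.33 ± 0.09, adjusted p = 0.0271). Ncor1 was not called in 10 of the 17 alternatives, and among these was the one without vehicle 1. Over the alternatives 1 to 3 genes of the list rose and none fell.

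Of 30 PPAR-alpha target genes outside the Cyp4a family, 4 rose, 1 fell and 25 did not pass, and the median log2 fold change was 0.14. Angptl4, a secreted inhibitor of lipoprotein lipase, rose 1.72-fold (edgeR adjusted p = 0.00154), and Vnn1, a pantetheinase, rose 1.38-fold (adjusted p = 0.00564). Fgf21, the fasting hormone, averaged 6.94 ± 3.30 CPM with vehicle and rose to 16.8 ± 1.17 CPM (SD, n = 3, adjusted p = 0.00649). The other calls were chosen for mention from their values. Pdk4, which restrains pyruvate oxidation, rose from a low level (0.98 ± 0.91 to 4.47 ± 0.83 CPM, adjusted p = 0.0177). Cd36, a fatty acid translocase, fell (log2 -0.73 ± 0.16, adjusted p = 0.018). Pdk4 was not called without vehicle 3 or atractylodin 3. Cd36 was not called without vehicle 1 or vehicle 2, with a replicate block or after thinning to the shallowest library. Among the targets that did not pass, Cpt1a, the gate of mitochondrial fatty acid uptake, was at 353.9 ± 34.5 and 390.8 ± 31.9 CPM (SD, n = 3, edgeR adjusted p = 0.454). Without vehicle 1, 4 of the list rose and none fell, and over the 17 alternatives 3 to 6 rose and 0 to 2 fell.

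The P450 electron donors split. Por, the reductase that passes electrons to all microsomal P450 enzymes, stood at 434.4, 353.8 and 430.7 CPM with vehicle and at 748.2, 982.2 and 877.6 CPM with atractylodin. Its log2 fold change was 1.10 ± 0.11 (SE, edgeR adjusted p = 2.59e-05), and the groups did not overlap. Cytochrome b5 (Cyb5a), a second donor, rose 1.28-fold (adjusted p = 0.031), but was not called in 8 of 17 alternatives, 5 of them with a library left out. The cytochrome b5 reductase gene Cyb5r3 fell, with a log2 fold change of -0.47 ± 0.10 (adjusted p = 0.00636).

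Of 12 other omega-hydroxylase genes listed, 5 passed the filter on low counts, none rose and 1 fell. Over all genes, 3.92% were called higher and 7.25% in either direction. With 5 tested genes, these counts cannot tell the list from all genes. Over the 17 alternatives 0 to 1 of the list rose and 0 to 1 fell. The one that fell was Cyp4b1, a P450 gene beside the Cyp4a cluster, from 17.7 ± 1.09 to 11.2 ± 2.36 CPM (SD, n = 3, edgeR adjusted p = 0.0388). It did not pass in 7 of 17 alternatives, among them DESeq2 and 5 with a library left out. Of 7 tested genes that neighbour the cluster, Cyp4b1 was also the one call, and Efcab14, a calcium-binding domain gene, was at 24.9 ± 3.86 and 34.4 ± 4.38 CPM (adjusted p = 0.0927). Pdzk1ip1, a small membrane protein gene, was at 1.71 ± 0.09 and 0.71 ± 0.22 CPM, with groups that did not overlap (adjusted p = 0.177). These levels are near the 1.64 CPM that a count of 3 equals in vehicle 1. Cyp4f14, a leukotriene and fatty acid omega-hydroxylase, was at 91.8 ± 10.2 and 77.3 ± 6.93 CPM (adjusted p = 0.204), and Cyp4v3, an omega-hydroxylase of medium-chain fatty acids, was at 362.5 ± 33.2 and 309.7 ± 13.2 CPM (adjusted p = 0.161). Cyp4f13 was at 24.0 ± 2.34 and 33.5 ± 5.91 CPM (adjusted p = 0.0607, called in 2 of 17 alternatives), and Cyp4f15 at 105.6 ± 6.44 and 127.0 ± 13.6 CPM (adjusted p = 0.114). The groups of Efcab14, Cyp4f13 and Cyp4f15 did not overlap either, with atractylodin higher, as for 13.5% of all tested genes. Those of Cyp4b1 and Cyp4v3 did not overlap with atractylodin lower, as for Pdzk1ip1. The share of all genes in that direction was not computed.

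The next step oxidises the omega-hydroxy acids. Of 9 tested alcohol and aldehyde dehydrogenase genes none rose and 1 fell, with a median log2 fold change of -0.11. The fall was that of Aldh1a7 (-0.38 ± 0.10, edgeR adjusted p = 0.0208), which failed to pass in 5 of 17 alternatives. Over the alternatives 0 to 3 of the list fell, with 3 falls under scaling by total counts, and none rose. These calls were 1 of 9 genes, against 7.25% of all genes called in either direction. Aldh3a2, the fatty aldehyde dehydrogenase, was at 451.3 ± 90.0 and 506.8 ± 65.7 CPM (SD, n = 3, adjusted p = 0.556), and Aldh2, the mitochondrial aldehyde dehydrogenase, was at 2169.5 ± 188 and 1763 ± 234 CPM (adjusted p = 0.11, called lower in 4 of 17 alternatives). Adh4, an alcohol dehydrogenase gene, was at 78.2 ± 11.5 and 53.8 ± 10.8 CPM (adjusted p = 0.0516). Its groups did not overlap, though the share of all genes without overlap in this direction was not computed. The call of Adh4 depended on the method: it was called lower in 9 of 17 alternatives, among them DESeq2 (adjusted p = 0.0257), and its estimate ran from -0.64 to -0.39.

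Among 24 genes of peroxisomal beta-oxidation none rose, 2 fell and 22 did not pass, and the median log2 fold change was 0.06. These calls were 2 of 24 genes, against the same 7.25%. Under scaling by total counts the median was -0.02 and 3 genes fell, and over the 17 alternatives 0 to 2 rose and 1 to 3 fell. Crot, which moves shortened fatty acids out of the peroxisome as carnitine esters, fell from 405.0 ± 24.3 to 281.4 ± 28.2 CPM (SD, n = 3, edgeR adjusted p = 0.00308). Nudt7, a coenzyme A diphosphatase of peroxisomes, fell from 193.5 ± 10.9 to 108.6 ± 28.7 CPM (adjusted p = 0.0276), and was not called in 4 of 17 alternatives, each with a library left out. Acaa1a, a peroxisomal thiolase gene, was at 256.3 ± 15.1 and 316.3 ± 46.2 CPM (adjusted p = 0.0953, called higher in 2 alternatives). Ehhadh, the bifunctional enzyme that acts on dicarboxylic acids, was at 22.1, 25.8 and 28.5 CPM with vehicle and at 30.5, 69.5 and 49.3 CPM with atractylodin. The groups did not overlap, but the atractylodin libraries ranged widely and Ehhadh did not pass (adjusted p = 0.177). The Ehhadh log2 fold change was 0.93 ± 0.32 (SE). It was called higher in 5 of 17 alternatives, among them DESeq2 (adjusted p = 0.002248) and the fit without atractylodin 1, and its estimate ran from 0.62 to 1.18. Abcd3, the peroxisomal importer of fatty acyl-CoA, was at 851.9 ± 68.0 and 903.9 ± 105 CPM (adjusted p = 0.696).

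**Figure D4:**
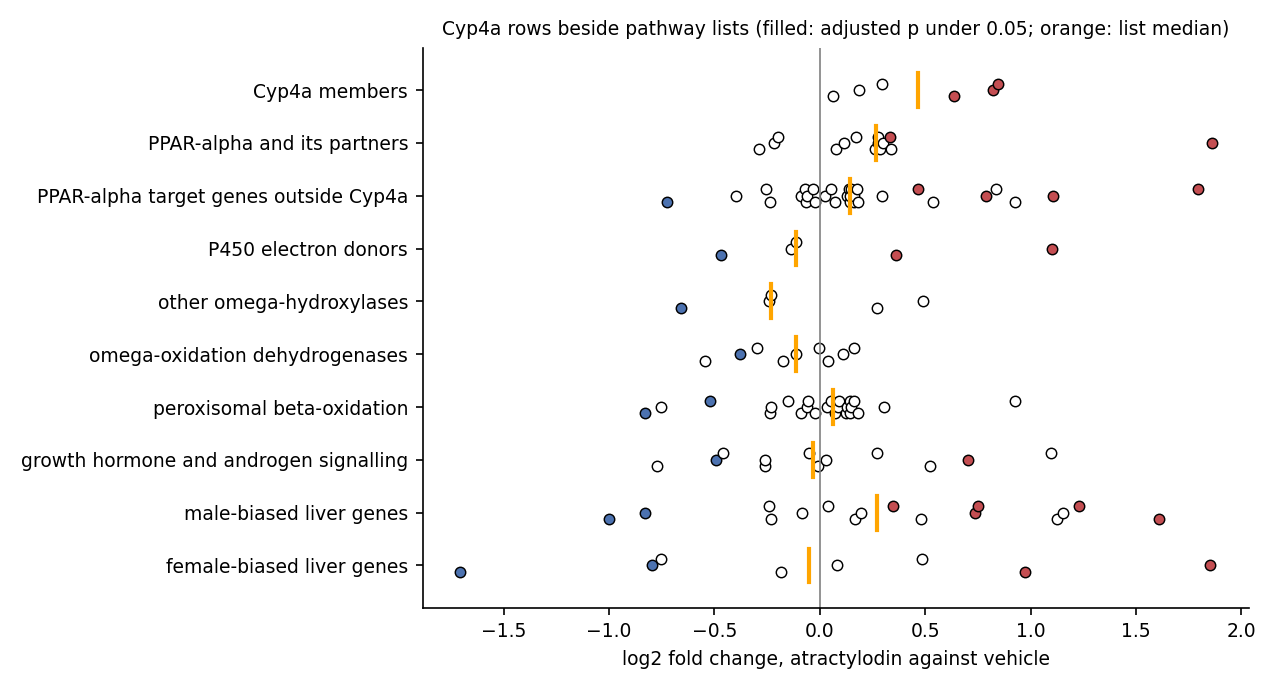
Log2 fold change (horizontal axis, atractylodin above vehicle to the right) of every tested gene in the Cyp4a family and in each pathway list, with rises filled red, falls filled blue and genes that did not pass unfilled. The orange bars are medians, which run from -0.23 for the other omega-hydroxylases to 0.46 for the Cyp4a members.

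Because Cyp4a12 and Cyp4a14 differ between the sexes, sex-biased liver genes were counted too. Of 16 male-biased genes 5 rose and 2 fell, with a median log2 fold change of 0.27. Over all genes tested, 3.92% were called higher and 7.25% in either direction. Mup1 rose 1.68-fold (edgeR adjusted p = 0.000712), and Cyp7b1, an oxysterol hydroxylase, rose 1.67-fold (adjusted p = 0.0148). The fatty acid elongase gene Elovl3 fell from 48.4 ± 8.53 to 24.1 ± 5.10 CPM (SD, n = 3, adjusted p = 0.00283). Mup3, Ugt2b38 and Gstp1, which were picked for mention from their values, also rose, and the remaining fall is that of Nudt7. Of 17 alternatives, Mup3 was not called in 13, Gstp1 in 9 and Cyp7b1 in 4, and Ugt2b38 was not called in 6 of the 15 that tested it. Over the alternatives 2 to 7 genes of the list rose and 1 to 3 fell, with 3 rises and 1 fall without vehicle 1 and 3 rises under upper quartile scaling.

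Of 8 tested female-biased genes 2 rose and 2 fell, with a median log2 fold change of -0.05, against 7.25% of all genes called. Cyp2b9 fell from 92.4 ± 4.58 to 53.0 ± 7.31 CPM (SD, n = 3, edgeR adjusted p = 0.000319) and Cyp2b13 fell to 1.45 ± 0.48 CPM (adjusted p = 0.0198). Fmo2 rose 1.96-fold (adjusted p = 0.00742) and Cyp2a4, mentioned because of its value, rose 3.61-fold (adjusted p = 0.031). Of the alternatives, 3 did not call Cyp2b13, 3 did not call Cyp2a4 and 2 did not call Fmo2. Over them 1 to 3 genes of the list rose and 1 to 3 fell. In growth hormone and androgen signalling 1 of 12 genes rose and 1 fell. Stat5b, the growth hormone signal transducer, was at 35.7 ± 5.65 and 35.4 ± 5.21 CPM (adjusted p = 0.874). Hnf4a, a transcription factor of hepatocytes, rose 1.63-fold (adjusted p = 0.000405), and Igfals, which carries IGF1 in blood, fell (log2 -0.49 ± 0.11, adjusted p = 0.012, not called in 2 of 17 alternatives). Onecut1, a liver transcription factor gene, was at 8.504 ± 1.498 and 4.93 ± 1.38 CPM (adjusted p = 0.0977). Its groups did not overlap, though the share of all genes without overlap in this direction was not computed.

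Markers of hepatocyte zones and of other cells were measured beside these results. Summed over 10 hepatocyte markers, the level was 98630 to 111893 CPM with vehicle and 101025 to 103593 CPM with atractylodin. Of 11 pericentral markers 2 rose (Cyp1a2 and Slc1a2) and 4 fell (Lgr5, Rhbg, Gulo and Lect2). Over the 17 alternatives 0 to 3 of these markers rose and 1 to 4 fell. Under total counts, and without vehicle 1, vehicle 3 or atractylodin 3, none rose. The share called in either direction over all genes was 7.25%. The pericentral sum was 9426 to 9981 CPM with vehicle and 9581 to 11128 CPM with atractylodin. Without Cyp2e1, the most abundant of these markers, the other 10 gave 3814 to 4642 CPM with vehicle and 3827 to 4161 CPM with atractylodin. Of 11 periportal markers 1 rose and 1 fell, and their sum was 3434 to 3863 against 5820 to 6582 CPM. That difference came from 1 gene, Pck1, the gluconeogenic enzyme gene (1145 ± 301 and 3644 ± 305 CPM, edgeR adjusted p = 0.00247), and the other 10 summed to 2490.1 to 2630.1 CPM with vehicle and 2454 to 2636 CPM with atractylodin. Cholangiocyte markers summed to 46.9 to 61.4 CPM with vehicle and to 25.2 to 29.5 CPM with atractylodin (2 of 4 fell, 1 to 3 over the alternatives). Of 12 endothelial markers 1 rose and 3 fell (488.1 to 503.9 against 426.7 to 450.5 CPM). These endothelial calls were not stable: over the 17 alternatives 0 to 1 rose and 0 to 4 fell. No endothelial marker was called without vehicle 1, vehicle 3 or atractylodin 3. Sums of 16 macrophage markers, of which 1 fell (0 to 5 over the alternatives), overlapped between groups (430.1 to 613.9 and 336.6 to 505.3 CPM). The sum of 3 adipocyte-list genes, nearly all of it Car3, a gene that hepatocytes also express, was 1303 to 1744 CPM with vehicle and 465.9 to 808.4 CPM with atractylodin, and Adipoq had no count. Car3 itself did not pass (adjusted p = 0.0574) but was called lower in 8 of 17 alternatives. What these shifts contributed to the Cyp4a values was not tested. Kidney tubule markers, listed because kidney also expresses Cyp4a genes, were at or near 0: Kap, Slc34a1 and Slc22a6 had no count in any library, and the 2 tested markers summed to at most 5.92 CPM.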

How the data were processed

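Liver RNA (500 ng of total RNA per library) was sequenced from the 3′ end with Lexogen QuantSeq, per the labels' protocols. The authors deposited raw counts per gene symbol, 1 file per library. Bowtie2, bedtools and the build mm10 are listed, per the submitters' processing notes, with no version or role. Annotation, strand setting and the handling of reads that match several genes are not given in the sources used here.

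Rows were filtered with filterByExpr, scaled by TMM and tested over all genes with the robust quasi-likelihood F-test of edgeR 4.0.16 (R 4.3.3), with no covariates and Benjamini-Hochberg adjustment at 0.05. Standard errors are the log2 fold change over the square root of F, and intervals use the t distribution of the fit. For paralog sums, the rows were replaced by their sum before filtering, and the whole table was refitted. Ratios within a library used a pseudocount of 0.5. No pair of libraries was near-identical (chi-square per degree of freedom at least 2.75). The members and gene lists were chosen with earlier results of these data known. Genes outside the family were named by a rule: a fixed set of 13 (of which 3 are not reported here), the 3 smallest p of each list described and the 3 nearest patterns. The test was tried on simulated data. Coordinates and coding sequences are from GENCODE M21 (GRCm38). Alternatives were DESeq2 1.42.0, limma-voom (limma 3.58.1), the likelihood ratio test, other scalings and filters, thinning to the shallowest library, a replicate block, and the removal of each library in turn. Effects of each alternative on list counts, and marker sums without their leading gene, were computed after seeing the data. A count of 3 equalled 0.239 to 1.64 CPM by total counts. Precision did not follow depth alone: the SE was 0.15 for Cyp4a31 and 0.51 for the more abundant Cyp4a12a. Figures used matplotlib 3.10.9.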

Additional observations from a re-analysis of the deposited data

How the results depend on the processing

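The rises of Cyp4a10, Cyp4a31 and the Cyp4a10 sum kept their direction and their call under all 17 alternatives, with log2 fold changes of 0.56 to 0.77, 0.72 to 0.96 and 0.56 to 0.77. Cyp4a14 kept its direction in all 17 (0.74 to 0.98) and lost its call without vehicle 2, so 2 to 3 members were called. Cyp4a32 did not pass in any (0.15 to 0.51). Scaling by total counts called 312 genes higher and 707 lower over all genes, against 490 and 416, library sizes without the 20 most abundant rows called 324 and 690, and calls numbered 519 after thinning, 494 without vehicle 1 and 467 without vehicle 3. Total counts gave Cyp4a14 0.74. Leaving out 1 library at a time, the estimates ran from -0.17 to 0.65 for Cyp4a12a, from -0.47 to 0.97 for Cyp4a12b and from -0.18 to 0.64 for their sum, and turned below 0 without vehicle 3 or atractylodin 3. The Cyp4a12b log2 fold change was also -0.037 under total counts, -0.025 with library sizes without the 20 most abundant rows and -0.0568 after thinning. The ratio differences stayed above 0 in all 10 alternatives (0.10 to 0.25 and 0.18 to 1.09). Among these the replicate block gives the main difference by construction, so its sign could not change.

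Among other genes, Mup20 turned to -0.051 under total counts and -0.043 without the 20 most abundant rows. With each library removed in turn, estimates crossed 0 for Alb (-0.1058 to 0.0071), Mup20 (-0.1854 to 0.3978) and Stat5b (-0.1287 to 0.0669). None of these passed in the main analysis, and the cause of each change of sign was not tested.

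Deviations of same-numbered libraries from their group means correlated at -0.03, -0.09 and 0.02. Those of different-numbered libraries ran from -0.08 to 0.11. No pairing by number was seen, though 3 libraries per group cannot exclude one. With the replicate number as a block, all genes called fell from 906 to 811, and Cyp4a14, Cyp4a10 and Cyp4a31 were still called. In this replicate block fit the Cyp4a14 log2 fold change was 0.81, with an edgeR adjusted p of 0.01852. Vehicle 1 held only 31 to 51 counts of the 3 scarcest members, which adds counting error to their levels. Their SEs still differed, at 0.15 for Cyp4a31, 0.17 for Cyp4a32 and 0.74 for Cyp4a12b. The deeper vehicle libraries 2 and 3 stood at 40.4 and 7.03 CPM of Cyp4a12b.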

Other observations

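Arachidonic acid, which Cyp4a12a omega-hydroxylates, is also a substrate of P450 epoxygenases. Of 13 genes of epoxygenases and epoxide hydrolases, 2 rose, 1 fell and 10 did not pass in edgeR (1 to 4 and 0 to 1 over 17 alternatives). Over all genes tested, 7.25% were called in either direction. Ephx1, the microsomal epoxide hydrolase, averaged 262.1 ± 38.2 CPM with vehicle and rose to 511.9 ± 10.0 CPM (SD, n = 3, adjusted p = 3.31e-05). Cyp2c29, an epoxygenase, rose 3.99-fold (adjusted p = 0.0483), but was not called in 8 of 17 alternatives, and Cyp2j6 fell (log2 -0.47 ± 0.13, adjusted p = 0.0365) but was not called in 6 of them. Cyp4a14 and Cyp4a10 are known to vary with the time of day. Of 16 tested clock genes, 5 rose and 3 fell, and over the 17 alternatives 2 to 5 rose and 1 to 3 fell. Per1 rose from 10.8 ± 1.24 to 28.4 ± 7.75 CPM (adjusted p = 0.000712), Nr1d1 fell from 25.8 ± 2.79 to 12.0 ± 2.28 CPM (adjusted p = 0.000994) and Rora rose 1.37-fold (adjusted p = 0.00454). The hour at which the livers were taken is not given in the sources used here, and the part of it in the Cyp4a values was not tested.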
